A study of Mus musculus with 24 samples.

Results

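The genes described here are 10 mouse interferon-inducible GTPases: the guanylate-binding protein genes Gbp2, Gbp3, Gbp5, Gbp6 and Gbp7 and the immunity-related GTPase genes Irgm1, Irgm2, Igtp, Iigp1 and Tgtp1. They were chosen by name, and all 10 had a probe on the array and were among the 20209 features tested. The study measured RNA on 24 one-colour Agilent arrays from dendritic cells that had been grown from C57BL/6 bone marrow for 9 days in human Flt3 ligand (100 ng/ml), the cytokine that drives dendritic cell development. The mice were wild-type (WT), lacked Irf5 (Irf5-KO), lacked Lyn (Lyn-KO) or lacked both (Lyn/Irf5-DKO, here DKO), and their cells either received no stimulus or received CpG-B ODN 1668 at 150 nM for 6 h, with 3 arrays in each of the 8 groups. CpG-B is a synthetic DNA that Toll-like receptor 9 senses, Irf5 is a transcription factor of that pathway and Lyn is a Src-family kinase. The series describes the 3 arrays of a group as biological triplicates, and the labels do not say whether each was a separate animal or how the alleles were made.

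Both protein families are large, dynamin-related GTPases that cells make after interferon. They gather on the membrane around intracellular bacteria and parasites such as Toxoplasma and Chlamydia, and help to break it and to alert inflammasomes. Irgm1, Irgm2 and Igtp (also called Irgm3) are regulators that stay on host membranes and keep effector GTPases, among them Iigp1 (Irga6) and Tgtp1 (Irgb6), inactive there, so that the effectors load onto vacuoles that lack the regulators. Interferon reaches these genes through STAT and IRF proteins, which bind promoter elements called GAS and ISRE.

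A gene's signal is given as log2 of its processed intensity minus the array's 75th percentile, so 0 is the level below which 75% of the probes of that array lie. Levels of different genes come from different probes and are not compared. The share of spots detected well above background was 41.0% to 53.8% per array, and no spot was saturated. Of the 10 GTPase genes, 8 were well above background on all 24 arrays, Gbp7 on 19 and Tgtp1 on 18. All 8 groups were present on each of the 3 slides, always at the same place, so group and place cannot be told apart. The Lyn probe was lower in Lyn-KO than in WT cells by a log2 difference of -1.82 unstimulated and -2.44 with CpG-B. The Irf5 probe was not lower with CpG-B (log2 difference of 0.64 in Irf5-KO against WT), and since its place relative to the deleted part is unknown here it checks nothing. The names Irf5-KO and DKO therefore stand for the arrays that carry those labels.

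All 6 plasmacytoid and all 5 general dendritic cell markers fixed for the check were above background on every array. All 10 conventional dendritic cell markers were above background on all 3 arrays of some group, but not all of them on every array. Tlr11 was above background on 12 arrays, Cd209a on 13, and Xcr1 and Clec10a on 22 each. B cell markers were present too and followed the Lyn genotype. The summed signal of 7 B cell markers, relative to the array's 75th percentile on a linear scale, ranged from 72.8 to 113 in unstimulated WT cells and from 114 to 145 in Irf5-KO cells, against 10.4 to 11 in Lyn-KO and 9.41 to 14.5 in DKO cells, and all 7 were lower in Lyn-KO than in WT. With CpG-B the same sum was 62.8 to 86.0 in WT, 94.3 to 122 in Irf5-KO, 18.1 to 20.1 in Lyn-KO and 15.1 to 16.4 in DKO. T and natural killer cell markers were low (sums of 2.17 to 2.95), and Cd247, Ncr1 and Klrb1c were not well above background. In bulk samples, fewer cells of a type and less RNA per cell cannot be told apart, and the part of these cell types in the results on the GTPase genes was not tested.

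The promoters of these genes are shown for the interferon elements they hold. RefSeq promoter windows of 300 bases (250 before and 50 after the transcription start, build GRCm38.p6) were matched for 8 members (all but Gbp6 and Iigp1), and the stretches before the start are printed 5′ to 3′ on the gene's strand to show the interferon elements. Capitals mark 2 motifs, searched on both strands: the ISRE core GAAANNGAAA (TTTCNNTTTC on the other strand) and the GAS palindrome TTCNNNGAA.
Gbp5: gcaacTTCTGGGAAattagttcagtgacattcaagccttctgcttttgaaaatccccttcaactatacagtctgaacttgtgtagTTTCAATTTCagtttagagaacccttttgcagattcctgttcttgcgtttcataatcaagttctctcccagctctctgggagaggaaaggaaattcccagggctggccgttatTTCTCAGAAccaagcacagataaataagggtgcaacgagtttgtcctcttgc
Gbp7: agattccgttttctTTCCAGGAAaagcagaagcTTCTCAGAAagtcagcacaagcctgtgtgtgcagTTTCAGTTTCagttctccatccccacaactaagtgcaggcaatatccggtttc
Gbp3: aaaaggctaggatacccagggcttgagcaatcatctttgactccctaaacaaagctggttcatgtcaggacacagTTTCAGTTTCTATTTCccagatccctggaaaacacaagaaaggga
Gbp2: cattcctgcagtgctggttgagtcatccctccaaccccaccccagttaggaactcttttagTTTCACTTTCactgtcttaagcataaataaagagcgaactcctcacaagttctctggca
Irgm1: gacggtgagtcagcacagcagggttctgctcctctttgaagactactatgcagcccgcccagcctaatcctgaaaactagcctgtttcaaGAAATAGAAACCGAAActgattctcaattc
Irgm2: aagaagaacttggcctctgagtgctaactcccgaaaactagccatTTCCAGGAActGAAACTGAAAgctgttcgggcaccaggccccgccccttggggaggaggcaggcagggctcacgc
Igtp: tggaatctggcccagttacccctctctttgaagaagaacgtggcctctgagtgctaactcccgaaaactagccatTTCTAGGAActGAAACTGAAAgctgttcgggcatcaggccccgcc
Tgtp1: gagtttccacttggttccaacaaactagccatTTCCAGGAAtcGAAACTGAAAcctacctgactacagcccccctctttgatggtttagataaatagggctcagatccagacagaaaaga
These lie at chr3:142496684-142496933 (plus strand, Gbp5), chr3:142530216-142530335 (plus, Gbp7), chr3:142559924-142560043 (plus, Gbp3), chr3:142620543-142620662 (plus, Gbp2), chr11:48871421-48871540 (minus, Irgm1), chr11:58214857-58214976 (plus, Irgm2), chr11:58199436-58199555 (plus, Igtp) and chr11:48992247-48992366 (minus, Tgtp1). Each ends at the base before the start. All lie upstream of the annotated transcript, outside any exon of that gene.

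An ISRE core lay before the start of all 8 members, while 3.44% of all 32851 windows in the table (27025 genes) held one. Gbp3 has a second window from a later start, which held no core, so 8 of 9 member windows did. A GAS match was found in 5 of the 8 members, Gbp5, Gbp7, Irgm2, Igtp and Tgtp1, against 8.3% of all windows, and both motifs occurred together in 0.454% of all windows. In Irgm2, Igtp and Tgtp1 the elements had the same layout: the GAS began 75, 45 and 88 bases before the start, and the ISRE core followed after 2 bases. The Igtp and Irgm2 windows also shared an identical run of 61 bases, and these genes are neighbours on chromosome 11. Irgm1 and Gbp3 each held 2 overlapping ISRE cores. Gbp5 carried the only kappaB match among the 8, a motif found in 4.51% of all windows, 77 bases before the start. A match describes letters only and is not a measured binding site.

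CpG-B raised every one of the 10 GTPase genes in every genotype. The lowest of the 12 CpG-B arrays stood above the highest of the 12 unstimulated arrays for all 10. How many of all features were separated in the same way was not counted. In WT cells, by the brightest probe of each gene, the rises ran from 3.57-fold for Gbp6 (a second Gbp6 probe gave at least 45.3-fold) to 89.8-fold for Gbp5, and the median log2 change was 4.47. The median over all features was -0.03, and 31.2% of features were higher (limma, Benjamini-Hochberg adjusted p under 0.05). All 10 were also higher in the mutants, with a median log2 change of 5.46 in Irf5-KO (31.6% of all features higher), 4.89 in Lyn-KO (32.8%) and 4.93 in DKO cells (34.6%). Within the 3 slides the WT median was 4.37, 4.54 and 4.49.

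**Figure D1:**
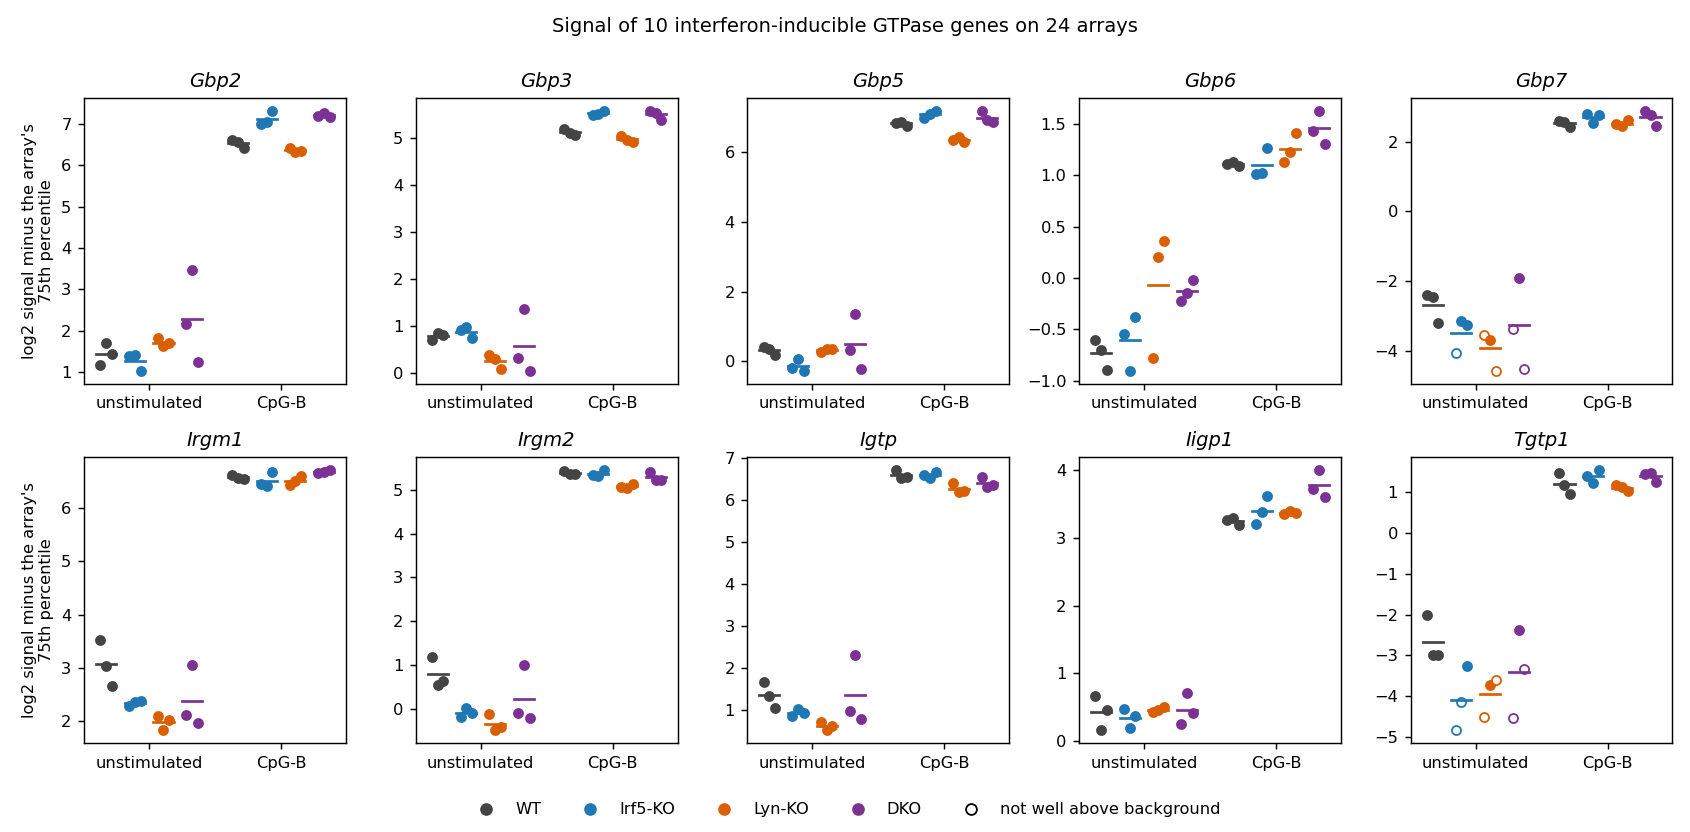
Signal of the 10 GTPase genes on all 24 arrays, as log2 signal minus the array's 75th percentile, with 1 panel per gene, 1 point per array and colours for the genotypes; open points are arrays on which the probe was not well above background. In every panel the 12 CpG-B points lie above the 12 unstimulated ones, and the unstimulated points are more spread out, with array 2 of DKO highest among the DKO arrays for 9 of 10 genes.

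Gbp5, Gbp7, Gbp3 and Gbp2 lie in this order in 1 cluster on chromosome 3, with Gbp2b between Gbp3 and Gbp2. Gbp5, whose protein is prenylated and has been linked to NLRP3 inflammasome assembly, measured 0.42, 0.37 and 0.19 on the unstimulated WT arrays and 6.84, 6.87 and 6.74 with CpG-B. That is a log2 change of 6.49 ± 0.24 (standard error, n = 3 arrays a group, adjusted p = 1.27e-14), the steepest WT rise among the brightest probes of the 10. The same change was 7.21 for Irf5-KO, 6.03 for Lyn-KO and 6.49 for DKO cells, all with a standard error of 0.24. Gbp2, another prenylated GBP that is recruited to Toxoplasma vacuoles, went from 1.18, 1.69 and 1.43 to 6.62, 6.56 and 6.43 in WT. The groups were far apart, with a log2 change of 5.10 ± 0.33 (adjusted p = 5.78e-11), and the changes in Irf5-KO, Lyn-KO and DKO were 5.85, 4.65 and 4.93.

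Gbp3, a GBP of the same cluster, measured 0.70, 0.84 and 0.80 unstimulated and 5.19, 5.11 and 5.06 with CpG-B in WT. Its replicates were tight, and the log2 change was 4.34 ± 0.20 in WT (adjusted p = 5.11e-13), 4.66 for Irf5-KO, 4.72 for Lyn-KO and 4.93 for DKO. Gbp7, a GBP found on vacuoles with Gbp2, was near background without stimulation, being well above it on 3 WT, 2 Irf5-KO, 1 Lyn-KO and 1 DKO array of 3. WT values were -2.40, -2.46 and -3.20 unstimulated and 2.61, 2.58 and 2.43 with CpG-B. Its log2 change was 5.23 ± 0.44 in WT (adjusted p = 3.36e-09), and 6.20, 6.47 and 5.97 in Irf5-KO, Lyn-KO and DKO, where the unstimulated side includes arrays near background. With normexp background correction these changes were 3.94 in WT and 4.37, 4.39 and 4.24 in the mutants.

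Gbp6 lies outside that cluster and neighbours Gbp10 and Gbp4. Its main probe measured -0.60, -0.70 and -0.89 in unstimulated WT cells and 1.11, 1.13 and 1.09 with CpG-B. By the brightest probe of each gene this was the shallowest rise of the 10, with a log2 change of 1.84 ± 0.21 in WT (adjusted p = 1.81e-07), 1.71 for Irf5-KO, 1.33 for Lyn-KO and 1.58 for DKO. A second Gbp6 probe gave a much larger change. It was not well above background on any unstimulated WT, Irf5-KO or Lyn-KO array, and its rise was at least 45.3-fold, 62.9-fold and 51.8-fold in those genotypes, where the bound sets the CpG-B mean against the dimmest signal that counted as above background. The probes agreed in direction and differed in size, and GBP genes are similar enough that cross-hybridisation cannot be told apart from a difference between transcripts.

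The 3 regulators rose together. Irgm1 measured 3.52, 3.03 and 2.67 in unstimulated WT cells and 6.61, 6.57 and 6.54 with CpG-B, a log2 change of 3.5 ± 0.21 (adjusted p = 1.85e-11). Its change was 4.16 for Irf5-KO, 4.52 for Lyn-KO and 4.30 for DKO, and a second Irgm1 probe gave 3.68, 4.33, 4.71 and 4.61 in WT, Irf5-KO, Lyn-KO and DKO. The CpG-B levels of the main probe were almost equal, between 6.42 and 6.71 on all 12 arrays. Irgm2 measured 1.18, 0.55 and 0.64 unstimulated and 5.43, 5.37 and 5.36 with CpG-B in WT. The log2 change was 4.59 ± 0.22 in WT (adjusted p = 6.03e-13), 5.44 for Irf5-KO, 5.42 for Lyn-KO and 5.06 for DKO. Igtp went from 1.68, 1.34 and 1.05 to 6.72, 6.53 and 6.57 in WT, a log2 change of 5.25 ± 0.25 (adjusted p = 8.7e-13). Its probe was spotted 10 times on each array and averaged, and the changes in the other genotypes were 5.67, 5.66 and 5.05.

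The effectors rose as well. Iigp1, which loads early onto Toxoplasma vacuoles, measured 0.67, 0.16 and 0.46 in unstimulated WT cells and 3.27, 3.30 and 3.19 with CpG-B. The log2 change was 2.82 ± 0.13 in WT (adjusted p = 6.77e-13), 3.06 for Irf5-KO, 2.92 for Lyn-KO and 3.32 for DKO. A second Iigp1 probe was below background on the unstimulated arrays of WT, Irf5-KO and Lyn-KO and rose at least 51.7-fold, 66.5-fold and 52.4-fold, against 7.09-fold in WT by the main probe. Tgtp1 measured -2.02, -2.99 and -2.98 unstimulated and 1.46, 1.18 and 0.96 with CpG-B in WT, a log2 change of 3.86 ± 0.43 (adjusted p = 1.67e-07). Its change was 5.47 for Irf5-KO, 5.06 for Lyn-KO and 4.81 for DKO, with only 1 of 3 unstimulated arrays above background in each of these groups. The size of the rise depended on the background: with normexp correction it was 2.74 in WT and 3.38, 3.14 and 3.17 in Irf5-KO, Lyn-KO and DKO. Tgtp1 and its neighbour Tgtp2 are near-identical copies, so their probes may read both, and Tgtp2 rose by 5.25 in WT.

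**Figure D2:**
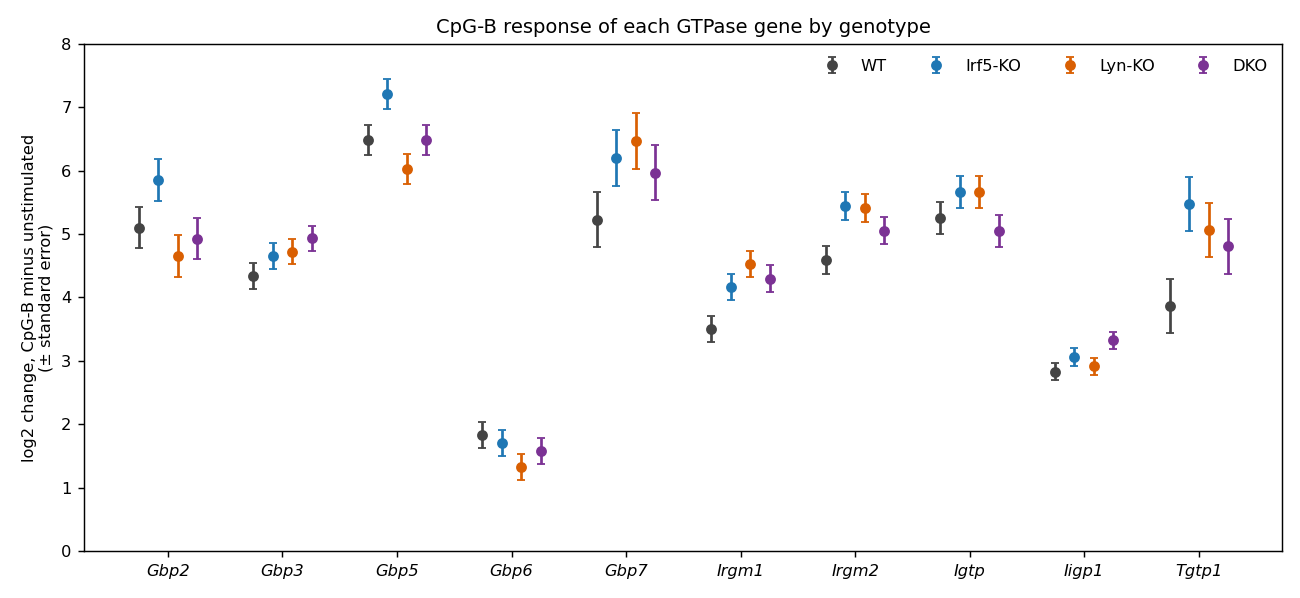
CpG-B response of each GTPase gene (x axis) as log2 change from unstimulated to CpG-B (y axis), with 1 point per genotype and bars for the standard error of the limma fit. All 40 points lie above 0, from 1.33 for Gbp6 in Lyn-KO to 7.21 for Gbp5 in Irf5-KO.

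Without stimulation, the members that passed a test between genotypes were regulators, and they did so between Lyn-KO and WT. Irgm1 was at 2.11, 1.83 and 2.03 in Lyn-KO, all below the 3 WT values of 2.67 to 3.52, a log2 difference of -1.08 ± 0.21 (adjusted p = 0.00346). The second Irgm1 probe gave -0.97 ± 0.26. Irgm2 was at -0.12, -0.49 and -0.40 in Lyn-KO against 0.55 to 1.18 in WT, a difference of -1.13 ± 0.22 (adjusted p = 0.00355). Both were lower on each of the 3 slides, and both calls held in 15 of 16 alternatives. Marker sums of other cell types also differed between these groups without overlap, beside the B cell sum given above: macrophage and monocyte (89.1 to 92.1 in WT, 76.2 to 77.8 in Lyn-KO), neutrophil (31.6 to 33.3 and 21.5 to 28.2) and plasmacytoid dendritic cell (366 to 458 and 475 to 489). Their part in these differences was not tested. These 2 of 10 compare with 2.75% of all features called lower in Lyn-KO. The third regulator, Igtp, stood at 0.71, 0.52 and 0.64 in Lyn-KO against 1.05 to 1.68 in WT, and its difference of -0.74 ± 0.25 did not pass (adjusted p = 0.124). Gbp3 (-0.53), Gbp7 (-1.25) and Tgtp1 (-1.29) likewise had separate groups but adjusted p of 0.171, 0.133 and 0.108. Gbp7 and Tgtp1 were above background on only 1 of 3 Lyn-KO arrays, and with normexp background correction their differences were -0.53 and -0.47. Gbp6 went the other way: it measured -0.78, 0.20 and 0.36 in Lyn-KO against -0.60 to -0.89 in WT, and its difference of 0.66 became 1.01 (adjusted p = 0.000178) without Lyn-KO array 1. With only the 6 arrays of both groups in the fit, no member passed, and adjusted p was 0.098 for Irgm1 and 0.0631 for Irgm2.

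No member passed the test between unstimulated Irf5-KO and WT cells, where 0.737% of all features did in either direction. Irgm2 came closest, at -0.18, 0.03 and -0.10 in Irf5-KO, below every WT array, with a log2 difference of -0.88 ± 0.22 (adjusted p = 0.0776). Irgm1, at 2.28, 2.37 and 2.38, was below WT by -0.73 ± 0.21 (adjusted p = 0.137). No member passed between unstimulated DKO and WT cells either (6.78% of all features did), nor between DKO and Irf5-KO (5.35%) or Lyn-KO (0.163%). The lowest adjusted p against WT was 0.054, for Irgm1 (-0.69 ± 0.21).

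The unstimulated DKO arrays were uneven. Array 2 was the highest of the 3 for 9 of 10 members, by more than 0.5 for 8 of them, whereas 1.87% of all features exceeded the other DKO arrays by that margin. Gbp2 measured 2.16, 3.47 and 1.24 on DKO arrays 1, 2 and 3, and Igtp 0.97, 2.32 and 0.78. Irgm1 measured 2.12, 3.05 and 1.98, and Gbp3 0.32, 1.36 and 0.04. Of 13 other interferon-inducible GTPases, 11 were also highest on array 2. Leaving out DKO array 3, the lowest for Gbp2, put Gbp2 above WT by 1.38 (adjusted p = 0.00221) and Gbp2 and Gbp5 above Irf5-KO by 1.54 and 0.98. The second probes of Gbp6 and Iigp1 were above background on that unstimulated array alone. The labels say nothing of this array, and the cause was not tested.

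**Figure D3:**
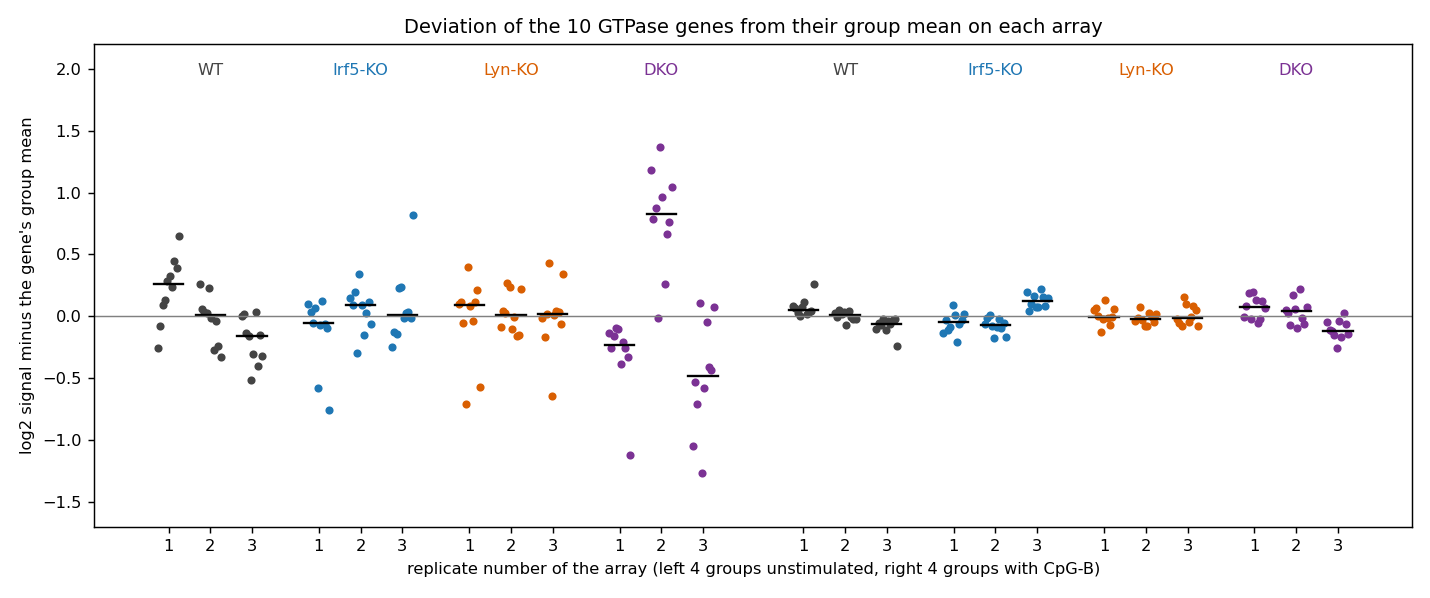
Deviation of each of the 10 GTPase genes from its group mean (y axis, log2) on every array (x axis, replicate number within each of 8 groups). On array 2 of unstimulated DKO, 9 of 10 points lie above 0, and its median deviation of 0.83 is the highest of all arrays. The CpG-B arrays on the right stay close to 0.

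When the test was repeated without array 2 of unstimulated DKO, a choice made after seeing the data, more members passed; every comparison in the fit shares 1 estimate of the spread. Gbp3, Gbp7, Irgm1, Irgm2 and Igtp were then lower in Lyn-KO than in WT (adjusted p from 1.69e-05 for Irgm2 to 0.0253 for Gbp7; 2.75% of all features lower). The same 5 genes were lower in DKO than in WT (3.04% of all features), with log2 differences of -0.60 for Gbp3, -1.03 for Irgm1, -0.94 for Irgm2 and -0.48 for Igtp. Gbp7 has no exact difference there, since its probe was not well above background on DKO array 1 or 3, and it was above background on only 1 of 3 Lyn-KO arrays. With array 2 in, the DKO difference of Igtp was 0.00. Irgm1 and Irgm2 were lower in Irf5-KO than in WT (adjusted p of 0.0192 and 0.0025; 0.475% of all features lower). Gbp3 was lower in DKO than in Irf5-KO by -0.69 (2.55% of all features lower). With all arrays, the members' spread within unstimulated groups was 1.26 (Iigp1) to 5.58 (Gbp2) times that within CpG-B groups, against a median ratio of 0.95 over all features. Without array 2 of unstimulated DKO the ratios ran from 1.09 (Iigp1) to 4.02 (Tgtp1), with Gbp2 at 2.92 and Gbp3 at 1.91 instead of 5.30, and the median over all features was again 0.95.

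With CpG-B the genotypes lay close together. The 4 group means of a member spanned from 0.17 (Irgm1) to 0.85 (Gbp2) on the log2 scale, next to responses of 1.33 to 7.21. The Lyn-KO mean was the lowest of the 4 for 7 of 10 members, and the DKO mean was the highest for 5, the Irf5-KO mean for 4 and the WT mean for 1. No member passed the test between Irf5-KO and WT, where 25.5% of all features passed in either direction, or between Lyn-KO and WT, where 25.2% did. The median difference over the members was 0.16 in Irf5-KO and -0.12 in Lyn-KO (0.02 and 0.05 over all features). The 95% confidence intervals of the 10 members reached from -0.76 to 1.28 for Irf5-KO and from -0.99 to 0.91 for Lyn-KO. In this fit, differences of these sizes were not excluded for the members with the widest intervals. Its spread estimate is shared with the unstimulated arrays, within whose groups every member varied more (1.26 to 5.58 times). A fit to the CpG-B arrays alone, given below, had smaller standard errors for all 10. With CpG-B, the arrays of Lyn-KO and WT did not overlap for 7 of 10 members, and those of Irf5-KO and WT for 3. The share of all features without overlap was not counted in either comparison, so these counts have no reference.

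Iigp1 differed between DKO and the other genotypes. With CpG-B it measured 3.73, 4.0 and 3.61 in DKO, against 3.27, 3.30 and 3.19 in WT, 3.20, 3.39 and 3.63 in Irf5-KO and 3.36, 3.40 and 3.37 in Lyn-KO. The DKO arrays did not overlap with those of WT or Lyn-KO, and overlapped with Irf5-KO on 1 array. DKO was higher than WT by 0.53 ± 0.13 (adjusted p = 0.00344), than Irf5-KO by 0.38 ± 0.13 (adjusted p = 0.0393) and than Lyn-KO by 0.41 ± 0.13 (adjusted p = 0.0275). Against Irf5-KO the difference was 0.53, 0.62 and -0.02 on the 3 slides, and the call held in 8 of 17 alternatives, being lost without Irf5-KO array 1 or 2 or DKO array 1 or 2. Against Lyn-KO it held in 10 of 17, and was lost without any 1 of the 3 Lyn-KO arrays or without DKO array 2 (adjusted p of 0.0546 to 0.146). Iigp1 was the only member called in the first comparison, where 24.9% of all features were higher in DKO than in WT, and in the second, where 18.1% were. Gbp2 differed more between DKO and WT, by 0.68, but did not pass. Its DKO arrays (7.17 to 7.27) did not overlap with those of WT (6.43 to 6.62). The shared spread estimate includes the unstimulated arrays. Within unstimulated groups the spread of Gbp2 was 5.58 times that within CpG-B groups, and that of Iigp1 1.26 times. The second Iigp1 probe also read highest in DKO (2.69, 3.02 and 2.38), but with a standard error of 0.69 its difference from WT, 0.62, did not pass (adjusted p = 0.517).

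Gbp5 was the other member called with CpG-B. It measured 6.35, 6.43 and 6.27 in Lyn-KO, the lowest 3 of the 12 CpG-B arrays, and 7.18, 6.92 and 6.86 in DKO. The difference of 0.64 ± 0.24 just passed (adjusted p = 0.0485) and was lost when any 1 of the 6 arrays was left out (adjusted p of 0.0636 to 0.16). Gbp5 and Iigp1 were 2 of 10 members higher in DKO than in Lyn-KO, against 16.8% of all features. Gbp2 and Gbp3 came next in this comparison, at 0.85 ± 0.33 (adjusted p = 0.0579) and 0.53 ± 0.20 (adjusted p = 0.055). Gbp2 measured 6.42, 6.33 and 6.35 in Lyn-KO and 7.21, 7.27 and 7.17 in DKO, with no overlap. It measured 7.0, 7.06 and 7.33 in Irf5-KO, again above every WT array. The summed signal of 5 macrophage and monocyte markers with CpG-B was also higher in these genotypes (40.1 to 47.3 in Irf5-KO and 38.9 to 57.7 in DKO, against 23.2 to 24.1 in WT and 22.4 to 25.5 in Lyn-KO), and its part in the Gbp2 and Gbp3 values was not tested.

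A fit to the 12 CpG-B arrays alone, added after seeing the data, has a smaller spread for these genes and called more of them. Gbp2 (0.59 ± 0.09) and Gbp3 (0.41 ± 0.06) were then higher in Irf5-KO than in WT, with 12.3% of all features higher. Gbp5 (-0.47 ± 0.09), Igtp (-0.32 ± 0.09) and Irgm2 (-0.30 ± 0.07) were lower in Lyn-KO than in WT, where 2028 of the 20209 features were lower (22.6% differed in either direction). DKO exceeded WT in Gbp2 (0.68), Gbp3 (0.38), Gbp6 (0.35) and Iigp1 (0.53), with 24.4% of features higher. DKO exceeded Irf5-KO in Gbp6 and Iigp1 (16.8% of features) and Lyn-KO in Gbp2, Gbp3, Gbp5, Irgm2 and Iigp1 (15.3%). These differences are at most 0.85 on the log2 scale.

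The interferon genes themselves behaved otherwise across the genotypes. Of 18 ligand genes fixed for the comparison, 14 were tested, and 13 were higher with CpG-B in each of the 4 genotypes. Between 31.2% (WT) and 34.6% (DKO) of all features were higher. The median log2 change of the 14 was 4.74 in WT, 3.88 for Irf5-KO, 7.79 for Lyn-KO and 6.48 for DKO. Ifnl3 was above background on all 24 arrays, but Ifna4, Ifna11 and Ifna13 were on at most 12 and Ifna7 on at most 13. Ifna2 and Ifna12 were above it on at most 17 arrays and Ifnb1 on at most 19. The sizes of changes in such genes are uncertain. With CpG-B, 10 of 14 were lower in Irf5-KO than in WT (median difference -0.97; 11.1% of all features lower), and 13 of 14 were higher in Lyn-KO (median 2.79; 13.9% of all features higher). DKO had 11 of 14 higher than WT (median 1.51, with 24.9% of all features higher). It had 14 of 14 higher than Irf5-KO (median 2.51, with 18.1% of all features higher). Against Lyn-KO, 12 of 14 were lower in DKO (median -1.22, with 14.7% of all features lower). Ifnb1, which encodes interferon beta, averaged 2.32 ± 0.30 (SD, n = 3) in WT, 0.08 ± 0.27 for Irf5-KO, 5.04 ± 0.05 for Lyn-KO and 2.81 ± 0.10 for DKO with CpG-B. The log2 differences from WT were -2.24, 2.72 and 0.49, each with a standard error of 0.25, of which the last did not pass (adjusted p = 0.12). Ifna genes are near-identical and their probes may read several of them. The summed signal of 6 plasmacytoid dendritic cell markers with CpG-B was 636 to 679 in WT and 612 to 653 in Irf5-KO. It was 877 to 1002 in Lyn-KO and 868 to 962 in DKO. In unstimulated WT cells it was 366 to 458, so the sum also moved with the stimulus. The part of this sum in the ligand differences was not tested.

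Over the same arrays the 10 GTPase genes had median differences of 0.16 (Irf5-KO against WT), -0.12 (Lyn-KO against WT), 0.18 (DKO against WT), 0.00 (DKO against Irf5-KO) and 0.25 (DKO against Lyn-KO). Gbp5 was lowest in Lyn-KO, where Ifnb1 was highest. Ifng, the gene of interferon gamma, rose by 4.37 in WT and averaged 1.08 ± 0.16 in WT, 0.68 ± 0.13 for Irf5-KO, 1.19 ± 0.22 for Lyn-KO and 1.67 ± 0.17 for DKO with CpG-B. Its only called difference among these groups was DKO above Irf5-KO, by 0.98 ± 0.26 (adjusted p = 0.00672). The comparisons share control arrays, so the columns of values are not independent of each other.

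**Figure D4:**
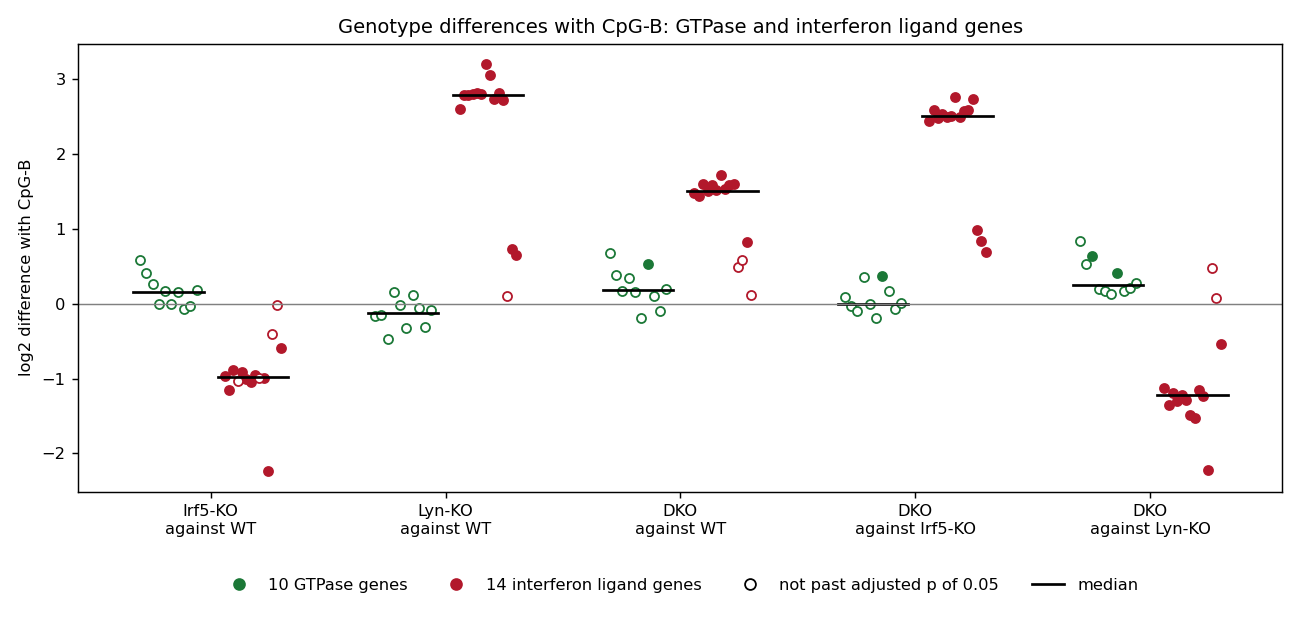
Log2 differences between genotypes with CpG-B (y axis) in 5 comparisons (x axis) for the 10 GTPase genes and 14 interferon ligand genes; filled points passed an adjusted p of 0.05, open points did not, and lines mark medians. The GTPase points stay between -0.47 and 0.85, while the ligand medians run from -1.22 (DKO against Lyn-KO) to 2.79 (Lyn-KO against WT).

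Differences between the CpG-B responses themselves were tested as interactions. Irgm1 was the only member called: its response exceeded that of WT by 1.02 ± 0.29 in Lyn-KO (adjusted p = 0.0306; 6.05% of all features higher) and by 0.80 ± 0.29 in DKO (adjusted p = 0.0481; 17.3% of all features higher). Its CpG-B levels were 6.61, 6.57 and 6.54 in WT, 6.44, 6.50 and 6.60 in Lyn-KO and 6.66, 6.67 and 6.71 in DKO, so these differences lie on the unstimulated side. The Lyn-KO call held in 13 of 22 alternatives and the DKO call in 3 of 21. Leaving out WT unstimulated array 1, which had the highest WT value, gave 0.80 (adjusted p = 0.0875) and 0.57 (adjusted p = 0.144). The Lyn-KO call was also lost without Lyn-KO unstimulated array 2 or 3 or without array 2 or 3 of either CpG-B group, with adjusted p under 0.0875 in each case. When 1 of its 12 arrays was left out, the DKO call held only without WT unstimulated array 3 or DKO unstimulated array 2. In DKO the value on the 3 slides was 1.45, 0.08 and 0.86, the slide of array 2 giving the lowest. In Irf5-KO no response differed from WT by this test (12.6% of all features did in either direction), and Irgm2, at 0.85, came closest (adjusted p = 0.082). The Lyn-KO effect with CpG-B did not depend detectably on Irf5 for any member (lowest adjusted p 0.596; 3.61% of all features did). Without array 2 of unstimulated DKO, the Irf5-KO response was larger than that of WT for Gbp5, Irgm1, Irgm2 and Tgtp1 (7.43% of all features larger). Tgtp1 was above background on 1 of 3 unstimulated Irf5-KO arrays, so the size of its difference is uncertain, and in the 24-array fit with normexp it was 0.64 (adjusted p = 0.0505). In that fit the Lyn-KO response was larger for Gbp3, Irgm1 and Irgm2 (5.88%) and the DKO response for Gbp3, Gbp7, Irgm1, Irgm2 and Iigp1 (16.6%), where the unstimulated DKO side of Gbp7 was not well above background on either array kept.

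Other genes of the pathway came from lists fixed with the design. In WT with CpG-B, 31.2% of all features were higher and 37.2% lower. Of 19 other interferon-inducible GTPases, 13 were tested: 12 rose with CpG-B in WT, with a median log2 change of 3.22, and 1 fell. Gm4951 rose by 6.94, Ifi47 (Irgd) by 4.64, Gm12250 (Irgb10) by 4.64, Gbp4 by 3.47 and Gbp9 by 3.17, while Irgq, a distant relative, fell by 1.13. Unstimulated, 1 of the 13 was lower in Lyn-KO than in WT, next to 2.75% of all features. It was Gm12250 at -1.04 ± 0.21 (adjusted p = 0.00452), the gene next to Igtp. Among 13 signalling and transcription factor genes, 12 rose in WT with CpG-B, including Irf7 (5.90), Batf2 (5.46), Irf1 (1.67) and Irf9 (1.42), and Irf8 fell by 0.76. Irf9, part of the factor that binds the ISRE, was lower in unstimulated Lyn-KO cells than in WT, by -0.48 ± 0.11. In that comparison 2.75% of all features were lower.

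Of 7 negative feedback genes, 6 rose in WT with CpG-B, next to 31.2% of all features. Among them were Usp18 (6.29) and the cytokine signalling suppressor Socs1 (3.94). In unstimulated Lyn-KO cells 3 of 7 were lower than in WT, next to 2.75% of all features. These were Usp18 by -1.25 ± 0.24 (adjusted p = 0.00378), Socs1 by -0.95 ± 0.22 (0.0155) and Cish by -0.66 ± 0.19, which just passed (0.0491). Of 6 interferon receptor genes, 2 rose and 3 fell in WT with CpG-B, shares near those over all features (31.2% higher and 37.2% lower). Ifngr1, a chain of the interferon gamma receptor, fell by 3.97, and Ifnar1 and Ifnar2, which form the type I receptor, by 1.40 and 1.42. Ifngr2, the second gamma chain, rose by 1.26. Ifnlr1, of the lambda receptor, differed most by genotype: with CpG-B it averaged 0.26 ± 0.23 in WT and 2.19 ± 0.26 in Lyn-KO, was not above background on any Irf5-KO array and was above it on 1 of 3 DKO arrays.

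The partners of these GTPases moved less evenly. Of 14 autophagy-related genes, whose products help to place the GTPases on vacuoles, 7 rose and 4 fell in WT with CpG-B (median 0.10), next to 31.2% of all features higher and 37.2% lower. The ubiquitin ligase gene Trim21 rose by 3.02, while Gabarapl1 fell by 2.26 and Atg7 by 1.75. Of 9 inflammasome genes 7 rose and 1 fell, next to the same shares of all features. Zbp1, a nucleic acid sensor, rose by 5.10, Casp4, which encodes mouse caspase-11, by 4.44 and Gsdmd, the pore-forming gasdermin, by 2.07, and the DNA sensor gene Aim2 fell by 0.84. Casp4 was lower in unstimulated Lyn-KO cells than in WT, by -0.49 ± 0.12 (adjusted p = 0.0183). It was the only gene of the 9 called in that comparison, where 2.75% of all features were lower.

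The members followed each other across arrays. Over all 24 arrays the pairwise Pearson correlation had a median of 0.986 (lowest 0.891), over arrays that include both treatments. Within groups the median was 0.612 over the 12 unstimulated arrays and 0.472 over the 12 CpG-B arrays. The unstimulated value includes array 2 of DKO, where the members' median deviation from their group means was 0.83. On WT array 1, the next highest unstimulated array, it was 0.26. The correlation was not computed without array 2 of unstimulated DKO, so the part of that array in the value of 0.612 was not tested. Of 6346 named genes whose group means spanned at least 1 on the log2 scale, those most like the members' mean over 24 arrays were Trim21 (r = 0.998), Fbxw17 (0.998), Ifi47 (0.998), Gvin1 (0.997) and Parp14 (0.997). Over the 12 CpG-B arrays alone they were Il15 (0.955), Nrde2 (0.954), Tmem67 (0.944), Myd88 (0.939) and Necap2 (0.939). These correlations are descriptions over arrays that share groups and slides.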

How the data were processed

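RNA was labelled with Cy3 and hybridised to 24 one-colour Agilent arrays, and each array's scanner output was deposited. Per the file headers, the authors' Agilent Feature Extraction 10.7.3.1 wrote the processed intensity, already background-subtracted, and the flags used here. Control spots and 4351 outlier-marked values were dropped, repeat spots of a probe averaged, and log2 of the intensity minus the array's 75th percentile taken. A probe was kept if some group had all 3 of its arrays well above background, and the brightest probe stood for each gene, which left 20209 features. All 24 arrays entered 1 limma fit (version 3.58.1, R 4.3.3) with a mean for each group, and p-values were adjusted by Benjamini-Hochberg within each of 18 comparisons at a threshold of 0.05, 2-sided. Precision is limited by the number of arrays.

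The deposited series table holds log2 values without a stated normalisation. Differences between arrays in it matched the scanner values within 0.0238 for 95% of values, its column medians run from -0.273 to 0.375, and its centring stays unknown, so it served only as an alternative. Replicate numbers equal slide numbers. Same-numbered arrays deviated together little by the median correlation (0.0549 over 84 pairs, against -0.0299 over 168 differently numbered pairs). Deviations were taken from group means, which by itself pulls differently numbered pairs to the opposite sign. Those pairs are therefore no independent reference. Because the same-numbered median was low, the numbers were not used as pairs in the main fit. Of the 84, 25 exceeded 0.1, and the highest was 0.293, against 0.125 for differently numbered pairs. A fit with the replicate number as a block was run as an alternative.

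The genes named are the 10 members, the genes of the fixed lists, Irf5 and Lyn, and the 5 genes most like the members' mean. The members and lists were chosen with earlier results of these data known. Promoter windows came from RefSeq. The fit was tested on simulated data with independent noise and the same spread of a gene in every group. The spread of the members differed between treatments, and the simulation does not cover that setting. Results for 1 gene of the fixed lists are not reported here.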

Additional observations from a re-analysis of the deposited data

Results flagged for a closer look

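A difference between genotypes in the CpG-B response passed its own test for 1 member, Irgm1. Its log2 response was larger than that of WT by 1.02 in Lyn-KO and by 0.80 in DKO cells. The unstimulated values carry the difference: 3.52, 3.03 and 2.67 in WT, 2.11, 1.83 and 2.03 in Lyn-KO and 2.12, 3.05 and 1.98 in DKO, while all CpG-B arrays lie between 6.42 and 6.71. The second Irgm1 probe gave 1.03 and 0.93 and did not pass when each probe was tested on its own (adjusted p of 0.0876 and 0.0652).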

How the results depend on the processing

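The CpG-B responses of the 10 genes kept their direction and their call under every alternative run (622 of 622 values, from 0.98 to 7.31 on the log2 scale), and leaving out any 1 array left all 10 called in each genotype. Differences between genotypes depended on the setting, in the number of members called, and apart from the choice of arrays the cause was not tested. For unstimulated cells, Irf5-KO against WT went from 0 to 1 with normexp and 2 without array 2 of unstimulated DKO in the fit. Lyn-KO against WT went from 2 to 0 with only the groups compared and 5 without that array. DKO against WT went from 0 to 1 with normexp, 1 with only probes above background on all arrays and 1 with only the groups compared.

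With CpG-B, the groups compared alone, the fit without that array and the fit to 12 CpG-B arrays gave 2, 2 and 2 for Irf5-KO against WT (0 in the full fit), 2, 1 and 3 for Lyn-KO against WT (0) and 4, 3 and 4 for DKO against WT (1). DKO against Irf5-KO (1) gave 0 with quantile normalisation, 0 with median scaling, 0 with normexp, 0 without the dim-probe filter, 0 with the groups alone and 2 with the 12 arrays. DKO against Lyn-KO (2) gave 0 with quantile normalisation, 1 with median scaling, 0 without the filter, 4 with only probes above background on all arrays, 1 with every probe on its own, 4 with the groups alone, 4 without array 2 and 5 with the 12 arrays.

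Response differences from WT changed too. Irf5-KO (0) gave 3 with the groups alone and 4 without array 2. Lyn-KO (1) gave 0 with normexp, 0 without the filter, 3 with the groups alone and 3 without array 2. DKO (1) gave 0 with quantile normalisation, median scaling, normexp, no filter, every probe on its own, the deposited table and the groups alone, and 2 with only probes above background on all arrays. Under the replicate block, which shares only the slide, the DKO count was 0, and no other count of members moved by over 1.5 times.

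Leaving out 1 array of the groups compared gave 0 to 1 members for Irf5-KO against WT, 2 to 3 for Lyn-KO against WT, 0 to 5 for DKO against WT and 0 to 2 for DKO against Irf5-KO among unstimulated cells. With CpG-B it gave 0 to 1 for DKO against Irf5-KO and 0 to 1 for DKO against Lyn-KO. Response differences from WT ranged over 0 to 1 (Irf5-KO), 0 to 2 (Lyn-KO) and 0 to 5 (DKO). Igtp, DKO against WT unstimulated, changed sign without DKO array 2, from 0.00 to -0.48 (adjusted p = 0.0442), and ranged from -0.48 to 0.29 over the arrays left out.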
